A study of Mus musculus with 6 samples.

Results

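The 9 genes described here make, degrade, bind or sense retinoic acid, and they were taken by name from 21701 protein-coding mouse genes. They are the synthesis genes Rdh10 and Aldh1a2, the breakdown genes Cyp26b1 and Cyp26a1, the binding protein genes Crabp1 and Crabp2, and the receptor genes Rara, Rarb and Rarg. The rule uses names and no measured value, though the set was picked with earlier results of these data known. Around the annotated 5′ end of each gene in the mm10 genome, all called regions within 50 kb were collected and the distal forelimb (DFL) was set against the proximal forelimb (PFL).

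The 6 samples were ChIP-seq libraries of wild type B6CBAF1 mouse forelimb buds, marked E12 (embryonic day 12) in the labels, published earlier and processed again by the study. DFL was the distal and PFL the proximal piece of the bud. Each piece was assayed for H3K27ac, an acetylation found at promoters and enhancers in use, H3K27me3, the mark set by the Polycomb repressive complex, and CTCF, a DNA-binding protein that holds chromatin loops. Another 2 lists, of the distal limb transcription factors HOXA13 and HOXD13 (together HOX13), came from whole forelimb buds of an earlier stage and belonged to no sample. There was 1 library for each mark and piece, so no difference between DFL and PFL could be set against replicate error and no p-value was computed. The study describes its ChIP-seq tissue as pools of several embryos. A piece of limb is a mixture of cell types, and fewer cells with a mark cannot be told apart from less of the mark per cell.

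Retinoic acid is a small derivative of vitamin A that enters the nucleus and activates receptors bound to DNA. Retinol is oxidised to retinaldehyde and then to retinoic acid, and CYP26 enzymes oxidise the acid further so that it is cleared. In the early limb bud retinoic acid is known as a proximal signal, and Cyp26b1 in the distal bud keeps its level low there. Receptors of the RAR family pair with RXR proteins on response elements made of direct repeats of a short hexamer, and several pathway genes carry such elements near their starts, which closes feedback loops.

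The lists held 59804 DFL and 69503 PFL regions of H3K27ac, 9083 and 13873 of H3K27me3, 54673 and 52801 of CTCF, 66761 of HOXA13 and 52660 of HOXD13. Read totals are not in the lists, and depth was read from the lowest local background in fragments, which was 12.49 in DFL and 11.9 in PFL for H3K27ac, 3.06 and 4.75 for H3K27me3, and 6.47 and 7.31 for CTCF. By this measure H3K27me3 was the shallowest mark and the most unequal. The read totals that the study states put PFL above DFL for H3K27ac, so the lowest background does not follow the read total alone. The labels of the H3K27ac libraries were checked with markers, and those of the CTCF libraries were not. H3K27ac around 7 distal limb genes covered 67.1 kb in DFL and 49.2 kb in PFL, with 5 of the 7 longer in DFL, and around 6 proximal limb genes it covered 8.95 and 19.8 kb, with 5 of the 6 longer in PFL. H3K27me3 was longer in PFL around both sets, with 9.69 kb in DFL and 30.1 kb in PFL around the distal genes and 17.6 and 25.8 kb around the proximal genes. The markers therefore do not settle the labels of H3K27me3. Markers of other cells also differed. H3K27ac covered 2.11 kb in DFL and 8.55 kb in PFL around 4 muscle genes (0 and 3 promoters marked), and 10.2 and 17.8 kb around 3 endothelial genes (3 promoters marked in each piece), and the part of these cells in the values below was not tested. H3K27ac covered 3.22 and 2.86 kb around 3 blood genes, 5.72 and 4.75 kb around 4 ectoderm genes and 5.25 and 5.29 kb around 3 Schwann cell genes, and no promoter of the blood or Schwann cell genes was marked in either piece.

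Most of the pathway was acetylated in both pieces. H3K27ac lay within 2 kb of a transcript start at all 9 genes in DFL and at 7 in PFL. The exceptions were Aldh1a2 and Cyp26a1, whose starts carried H3K27ac in DFL alone, a state that 1.16% of all genes had. No member had H3K27ac at its start in PFL alone (3.59% of all genes), and 7 had it in both pieces (58% of all genes). H3K27me3 was at the starts of Aldh1a2, Cyp26a1, Crabp1 and Rarb in both pieces (16.2% of all genes) and at a Cyp26b1 start in PFL alone (4.01%), and at none in DFL alone (0.475%).

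Within 50 kb of the 5′ ends, H3K27ac regions covered 50729 bp in DFL and 54982 bp in PFL, in 79 and 85 regions. DFL thus held 48.0% of the covered length, against 45.3% over the genome, and 48.2% of the regions (Wilson 95% interval 40.7 to 55.8%, counting error only). Within 10 kb of the 5′ ends the lead turned, and DFL held 50.6% of the length. H3K27ac covered more in DFL around 5 of the 9 genes (18.2% of all genes) and more in PFL around 4 (64.4%). At a −log10 q of at least 5, Cyp26a1 and Rarb of these 5 had 0 bp in both pieces. Rarb counts here by its annotated 5′ end, and its downstream promoter, described below, was longer in PFL (3942 and 4437 bp). None of the 9 differed by the size fixed for a call, which was a covered length at least 2 times and 1000 bp longer in one of the pieces. Of all genes, 0.641% passed it towards DFL and 4.17% towards PFL. Covered length is the extent of called regions and not the level of a mark.

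**Figure D1:**
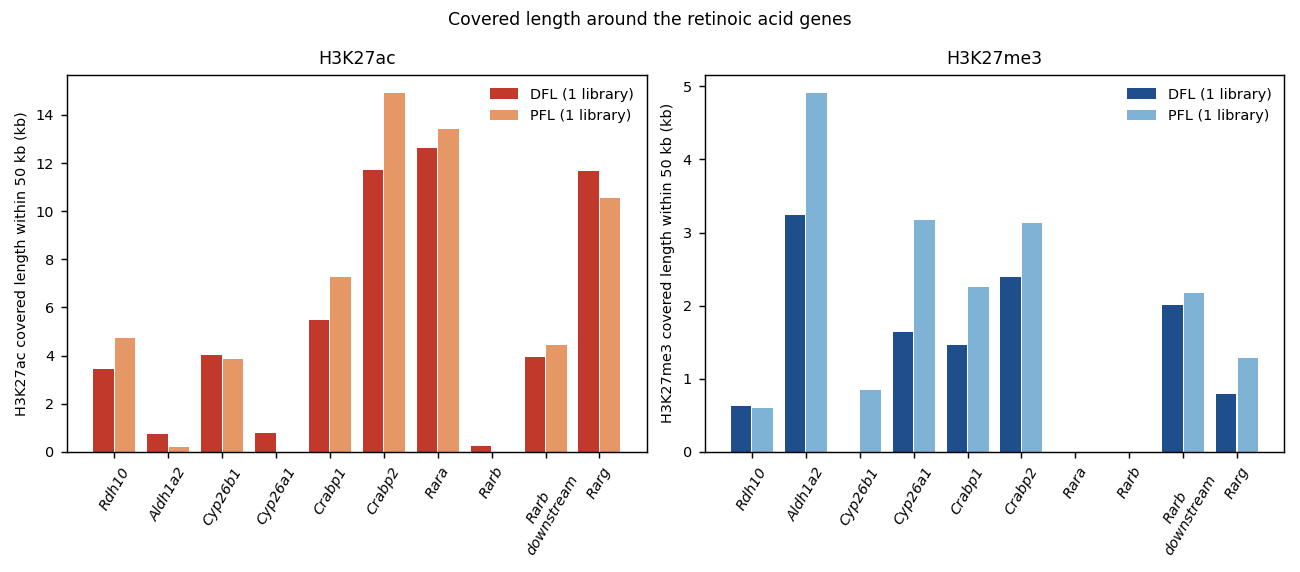
Length covered by called H3K27ac regions (left, kb) and H3K27me3 regions (right, kb) within 50 kb of each start, with a bar for DFL and a bar for PFL, each from 1 library. H3K27ac bars of DFL and PFL are close in height at most genes, Aldh1a2, Cyp26a1 and the annotated 5′ end of Rarb have less than 1 kb, and H3K27me3 bars are taller in PFL at 6 of the 9 genes.

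**Figure D2:**
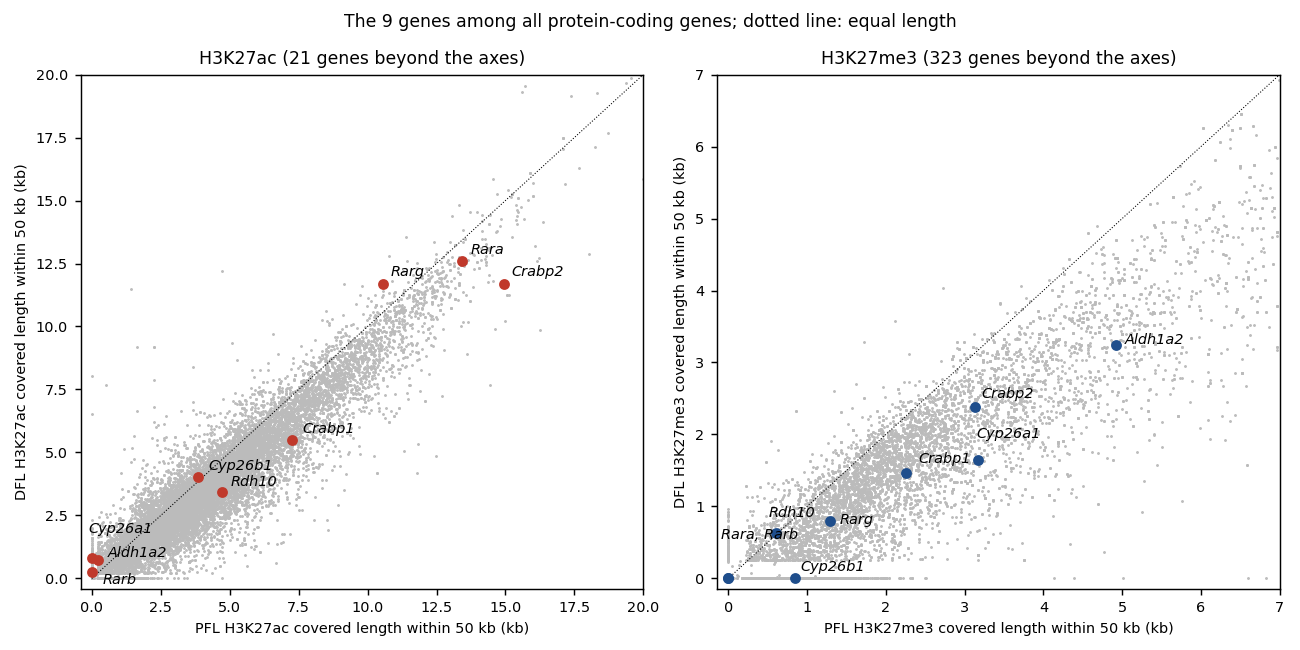
PFL (x axis, kb) against DFL (y axis, kb) covered length within 50 kb of the start for all 21701 protein-coding genes (grey) and the 9 retinoic acid genes (coloured, named), for H3K27ac (left) and H3K27me3 (right). Rarg lies above the dotted line of equal length for H3K27ac and Crabp2 below it, and the axes end at 20 and 7 kb, which leaves 21 and 323 genes outside.

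Ordered by DFL minus PFL covered length of H3K27ac, Rarg ranked 419th of 21701 genes, Cyp26a1 750th, Aldh1a2 1309th, Rarb 2268th and Cyp26b1 2704th. Rara followed at 16090th, Rdh10 at 18611th, Crabp1 at 20058th and Crabp2 at 21465th. With 1 library a piece, neighbours in this order cannot be separated. H3K27me3 covered 10154 bp in DFL and 16205 bp in PFL, in 15 and 23 regions, and its DFL share of 38.5% lay beside 39.1% over the genome. It was longer in DFL at 1 of the 9 genes (4.4% of all genes), longer in PFL at 6 (41.3%) and equal at 2 (54.3%), and none passed the size for a call (0.0369% of all genes towards DFL and 5.79% towards PFL).

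The synthesis gene Rdh10 (chr1:16105774-16133734, plus strand) encodes the dehydrogenase that turns retinol into retinaldehyde. Its H3K27ac covered 3443 bp in 4 DFL regions and 4735 bp in 9 PFL regions. The main region ended just upstream of the start, where it also covers the start of the ribosomal protein gene Rpl7, and measured 1690 bp in DFL and 1806 bp in PFL. Its fold, the summit pileup over the local background within a library, was 4.61 in DFL and 5.11 in PFL. The local background there was 5.72 times the lowest of the library in DFL and 5.75 times in PFL, so the density of reads around this region was alike in both pieces. A region 306 bp downstream of the start was longer in DFL (chr1:16105800-16106595) than in PFL (chr1:16105901-16106247). Its backgrounds were 5.76 and 5.75. Its summit pileup, as a multiple of the lowest background, was 1.29 times as high in DFL as in PFL, at percentile 89.4 of all H3K27ac pairs of overlapping regions.

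Inside and just past Rdh10 the pieces differed in which short regions were called. PFL had 5 regions without a DFL counterpart at 21.3, 21.7, 22.2, 24.9 and 29.5 kb downstream of the start, with folds of 2.01 to 2.55, and a further region 35.5 kb upstream with a fold of 3.57. DFL had 1 region of its own, 10.1 kb into the gene, with a fold of 2.69. A HOXA13 region with a fold of 3.92 lay 21.9 kb downstream on the PFL regions. H3K27me3 was called 13 kb upstream, in the neighbouring gene 4930444P10Rik, with 628 bp in DFL and 603 bp in PFL. The start of Rdh10 was itself a CTCF site, with folds of 14.1 in DFL and 13.1 in PFL.

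Aldh1a2 (chr9:71215789-71296243, plus strand) encodes the retinaldehyde dehydrogenase that makes most retinoic acid in the embryo. H3K27ac at its start was called in DFL alone, as a region of 744 bp (chr9:71215990-71216733) with its summit 729 bp into the gene, a fold of 3.41 and a −log10 q of 10.3. PFL had a single H3K27ac region in the window, of 219 bp, 47.8 kb upstream in Aqp9. The DFL region stood on the lowest local background of its library.

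The same stretch was covered by H3K27me3 in both pieces. The main region, which began just downstream of the start, measured 2074 bp in DFL and 2276 bp in PFL, with local backgrounds of 9.08 and 12.3 times the lowest of each library. Over the window H3K27me3 covered 3241 bp in DFL and 4916 bp in PFL. An intronic region 14 kb downstream had backgrounds of 3.58 in DFL and 6.09 in PFL, a ratio of 0.588 that sat at percentile 2.82 of all 8261 H3K27me3 pairs. Aldh1a2 was thus the member with the lowest DFL to PFL ratio of H3K27me3 background, and the part of the unequal depth of the libraries was not tested. H3K27ac and H3K27me3 at starts of the same gene occurred in DFL at 8.84% of all genes, in PFL at 12.8% and in both pieces at 7.95%.

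Counted around the annotated 5′ ends, Aldh1a2 also had the most HOX13 regions of the 9 genes, while the downstream promoter of Rarb, which is not counted among the 9, had 9 of HOXA13 and 7 of HOXD13. At Aldh1a2 there were 8 of HOXA13 (at least 7 in 6.64% of all genes) and 7 of HOXD13 (at least 7 in 4.26%), and none of the 15 overlapped H3K27ac of either piece. Of all regions, 67% of HOXA13 and 65.1% of HOXD13 overlapped none either, and H3K27ac covered only 744 bp in DFL and 219 bp in PFL in this window. Several HOXA13 and HOXD13 regions lay at the same place, so the 15 are not separate sites. The highest binding lay 26.5 kb into the gene, with folds of 10.7 for HOXA13 and 8.81 for HOXD13. Another site lay on the H3K27me3 region 1.6 kb downstream of the start, with folds of 8.36 and 6.89. Another stood 4.28 kb upstream with 5.17 and 5.85. The 121 bases around the strongest summit and those around the upstream HOXA13 summit are shown because they carry this binding without acetylation (plus strand of mm10, with a CAATAAA match in capitals and no capitals where neither CAATAAA nor TCGTAAA is present on either strand).
Aldh1a2 HOXA13 summit at chr9:71242238-71242358, 26.5 kb downstream: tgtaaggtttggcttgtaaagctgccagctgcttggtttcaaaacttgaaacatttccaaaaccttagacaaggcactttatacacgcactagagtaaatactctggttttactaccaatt
Aldh1a2 HOXA13 summit at chr9:71211454-71211574, 4.28 kb upstream: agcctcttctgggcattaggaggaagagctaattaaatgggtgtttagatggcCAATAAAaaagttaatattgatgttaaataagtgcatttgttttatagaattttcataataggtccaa

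CTCF bordered Aldh1a2 on its upstream side in both pieces. Sites 26.6, 4.71 and 0.459 kb upstream had folds of 19.5, 12.9 and 9.01 in DFL and 18.6, 11.7 and 9.77 in PFL. None of the 3 held the CTCF core CCANNAGNNGGC, on either strand, in the 201 bases centred on its summit, a match that 39.3% of all DFL sites had.

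Cyp26b1 (chr6:84571414-84593908, minus strand) encodes the enzyme that degrades retinoic acid in the distal limb bud. Its H3K27ac covered 4024 bp in DFL and 3855 bp in PFL, nearly all inside the gene, and none lay within 2 kb of the annotated 5′ end. A region 8.28 kb downstream of the 5′ end measured 2062 bp in DFL and 1839 bp in PFL, with folds of 2.13 and 2.32. The next, 6.39 kb downstream, measured 1735 bp and 1593 bp, with folds of 2.36 and 2.39. A start of a shorter Cyp26b1 transcript lies within 2 kb of both regions. A short region past the 3′ end, at 24.0 to 24.3 kb, was called in each piece without overlap.

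Low folds at Cyp26b1 went with a high density of reads around the regions. The local background of the first region was 8.49 times the lowest of the library in DFL and 6.95 times in PFL, a ratio of 1.22 at percentile 92.7 of all 43805 H3K27ac pairs. That of the second was 8.26 and 6.41, a ratio of 1.29 at percentile 94.7. Over all pairs the median ratio was 0.946, and 95% of pairs lay between 0.606 and 1.45, so both Cyp26b1 regions lay above the median and inside the spread of single regions. These regions are neighbours and not independent, and no replicate was there to give the error of the ratios.

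H3K27me3 at Cyp26b1 was called in PFL alone, in a region of 599 bp with a fold of 2.66 at 7.64 kb and a region of 250 bp with a fold of 2.52 at 4.12 kb. DFL had none within 50 kb. Both are short and come from the deeper library of this mark, whose part was not tested. HOX13 regions with folds of 3.46 for HOXA13 and 3.58 for HOXD13 lay about 8.0 kb downstream, on the acetylated region and on the PFL H3K27me3 region. CTCF sites 3.41 and 14.8 kb downstream enclosed the acetylated stretch, with folds of 15.6 and 16.1 in DFL and 17.2 and 15.8 in PFL.

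Cyp26a1 (chr19:37697798-37701536, plus strand) encodes a further retinoic acid hydroxylase and is a classical target gene of the acid. H3K27ac was called at it in DFL alone, as a region of 236 bp ending upstream of the start (fold 2.22, −log10 q 2.76) and a region of 568 bp inside the gene (fold 2.52, −log10 q 4.36). PFL had 0 bp within 50 kb. Both DFL regions are weak and stood on the lowest background of the library, and neither reaches a −log10 q of 5.

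H3K27me3 surrounded Cyp26a1 and its neighbour Cyp26c1, another gene of the family, in both pieces. It covered 1643 bp in 3 DFL regions and 3168 bp in 5 PFL regions. The local background was the highest of any member, at 13.5 to 15.2 times the lowest in the 3 DFL regions and 16.2 to 18.3 times in their PFL counterparts. The ratios, 0.818 to 0.838, were a little below the median of 0.893 of all H3K27me3 pairs. The DFL H3K27ac region inside the gene thus overlapped and adjoined H3K27me3 regions of its own piece.

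A response element of the DR5 kind has 2 hexamers with 5 bases between them. Each hexamer was one of AGGTCA or AGTTCA, or either of these with G as its first base (GGGTCA or GGTTCA). It was searched on both strands of the RefSeq promoters (GRCm38.p6, 250 bases before to 50 after the start). Of 32851 promoters 32 held it, or 0.0974%. Of the 9 genes 7 had promoters in the set, and those of Cyp26a1 and Rarb held a DR5, which is shown here with both hexamers in capitals, on the minus strand of mm10. The Cyp26a1 element lay 32 to 16 bases upstream of the RefSeq start in no called region of any list. The Rarb element lay 53 to 37 bases upstream of the RefSeq start of its downstream promoter and was overlapped by H3K27ac and CTCF of both pieces and by HOXD13.
Cyp26a1 DR5 at chr19:37697770-37697798: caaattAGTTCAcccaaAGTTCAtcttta
Rarb DR5 at chr14:16575507-16575535: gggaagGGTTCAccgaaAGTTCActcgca

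The match is one of letters and does not show receptor binding, which was not measured. Near Cyp26a1 the CTCF site 6.32 kb downstream was strong in both pieces, with folds of 16.5 in DFL and 16.9 in PFL. It is shown as a member site that holds the core motif (capitals, plus strand).
Cyp26a1 CTCF core at chr19:37704083-37704122: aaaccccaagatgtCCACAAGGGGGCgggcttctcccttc

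**Figure D3:**
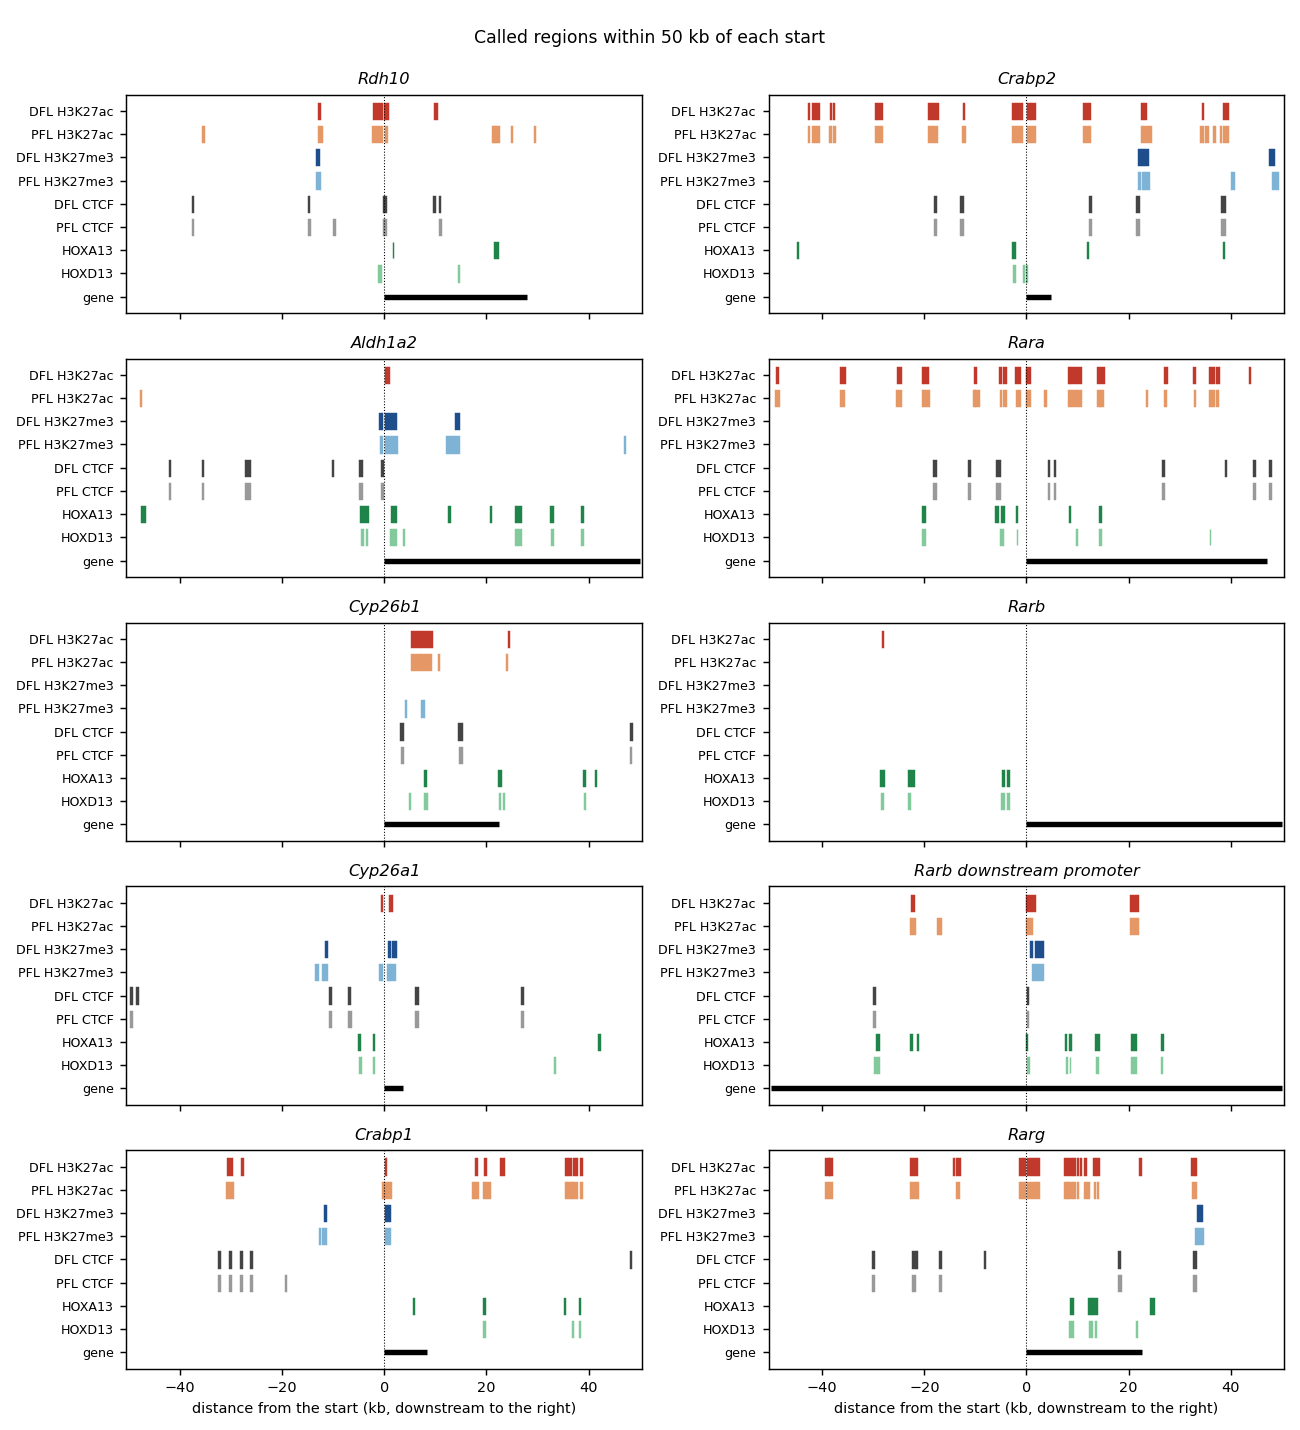
Called regions of the 8 lists within 50 kb of the start of each gene, and of the downstream promoter of Rarb, by distance from the start in kb with downstream to the right; the black bar is the gene, and each region has a thin outline so that narrow ones stay visible, which joins some close neighbours. Aldh1a2 shows 8 HOXA13 regions and an H3K27ac region next to the start in DFL alone, and the window of the annotated 5′ end of Rarb is almost empty while that of its downstream promoter is marked.

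H3K27ac covered more in PFL around both binding protein genes, as around 64.4% of all genes, and neither passed the size for a call. Crabp1 (chr9:54764748-54773110, plus strand) encodes a cytoplasmic retinoic acid binding protein. H3K27ac covered 5487 bp in 11 DFL regions and 7271 bp in 12 PFL regions. Just downstream of the start the DFL region measured 288 bp and its PFL counterpart 1200 bp, and PFL had a further region of 294 bp just upstream. The local backgrounds of the pair were 1.13 and 1.62, a ratio of 0.696 at percentile 5.86 of all pairs.

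H3K27me3 also began just downstream of the start in both pieces, in regions of 1058 bp in DFL and 1100 bp in PFL that overlapped the H3K27ac regions. Its fold was 5.23 in DFL and 3.57 in PFL, and the summit pileup, as a multiple of the lowest background, was 1.65 times as high in DFL as in PFL, at percentile 97.5 of all pairs. The stretch just downstream of the Crabp1 start thus had shorter H3K27ac and a higher H3K27me3 summit in DFL, in single libraries. The H3K27me3 background ratio of this pair was 1.10, at percentile 86.7. Over the whole window, however, H3K27me3 was shorter in DFL, with 1459 bp against 2254 bp in PFL. A cluster of H3K27ac regions between 17.4 and 38.6 kb downstream was called in both pieces. Of its pairs the background ratio ran from 0.769 to 0.909. HOX13 bound in that cluster, 19.5 kb downstream, with folds of 6.72 for HOXA13 and 8.60 for HOXD13 on H3K27ac of both pieces. The strongest H3K27ac region of the window, with folds of 7.59 and 8.09, belonged to the neighbour Wdr61.

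Crabp2 (chr3:87948666-87953376, plus strand) encodes the binding protein that hands retinoic acid to its receptors. It had the longest H3K27ac of the 9 genes in PFL, 14931 bp in 20 regions, against 11706 bp in 18 regions in DFL. All 18 pairs had a lower local background in DFL, with ratios of 0.612 to 0.894 and a median of 0.830, and the all-pair median of 0.946 was above every one of them. They share their neighbourhood, some share a PFL region that was split in DFL, and they are not independent. At the gene itself, the pair 262 bp downstream of the start had folds of 3.02 in DFL and 3.04 in PFL over backgrounds of 6.60 and 7.44.

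The window of Crabp2 holds other active genes, among them Hdgf, Mrpl24, Rrnad1, Isg20l2, Nes and Bcan. The 4 pairs with backgrounds at least 1.5 times higher in PFL (4.5% of all pairs) all lay beyond Crabp2, at Nes and 34.5 to 38.8 kb downstream. At Nes, which encodes an intermediate filament of progenitor cells including those of muscle and vessels, the H3K27ac summit pileup in DFL was 0.387 and 0.491 times that in PFL, while that of H3K27me3 was 1.5 to 1.61 times as high. Both H3K27ac ratios at Nes set a DFL region against the same longer PFL region, so they share its summit. H3K27ac around the muscle and endothelial markers given above was also shorter in DFL, but so was their H3K27me3 (8.14 kb in DFL and 17.8 kb in PFL for muscle, 1.41 and 2.50 kb for endothelium), and the part of these cells was not tested. Within 10 kb of the Crabp2 start, H3K27ac covered 3176 bp in DFL and 3163 bp in PFL.

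Crabp2 held the single direct repeat found in H3K27ac regions of the 9 windows. It is a DR2, the same hexamers with 2 bases between them, and is centred near 1135 bp upstream of the start, inside the H3K27ac regions of both pieces. Of all H3K27ac regions of 1000 to 2000 bases, 0.534% in DFL and 0.506% in PFL held a DR2. It is printed with 20 bases on each side, plus strand, and hexamers in capitals.
Crabp2 DR2 at chr3:87947505-87947558: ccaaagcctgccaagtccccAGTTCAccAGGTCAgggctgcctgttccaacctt

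HOX13 bound a little further upstream of Crabp2, with folds of 7.96 for HOXA13 (2.46 kb upstream) and 5.26 for HOXD13, on H3K27ac of both pieces. A CTCF site 12.8 kb upstream had folds of 18.4 in DFL and 16.1 in PFL. Another 12.4 kb downstream had 20.6 and 19.4, the highest CTCF folds of the 9 windows in each piece. The upstream site held the core motif (capitals, plus strand).
Crabp2 CTCF core at chr3:87935886-87935925: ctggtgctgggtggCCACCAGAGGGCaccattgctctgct

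Among the receptor genes, Rara (chr11:98927818-98974942, plus strand), the broadly expressed receptor, had H3K27ac over 12607 bp in 19 DFL regions and 13424 bp in 22 PFL regions and no H3K27me3 in either piece. Its 18 pairs had a median background ratio of 0.973, from 0.793 to 1.28. The region at the start had folds of 3.09 in DFL and 2.87 in PFL, and the one 10.1 kb downstream, in the densest part of the gene, had 3.11 and 3.10. The pair furthest towards DFL lay 36.4 kb upstream in Wipf2, with backgrounds of 1.56 and 1.21.

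The strongest HOXD13 region near any member lay 20.2 kb upstream of Rara, 178 bp from a start of the replication gene Cdc6. Its fold was 12.51, the 758th highest of 52660, and the HOXA13 fold there was 8.57. Another pair 4.75 and 4.77 kb upstream had folds of 6.40 for HOXA13 and 8.09 for HOXD13. Of the 12 HOX13 regions at Rara, 11 overlapped H3K27ac of both pieces. Of all HOXA13 regions 28.3% overlapped H3K27ac of DFL and 26.7% that of PFL, and of all HOXD13 regions 30.8% and 28.3%. The Rara window was rich in H3K27ac (12607 and 13424 bp). Several of the 12 are HOXA13 and HOXD13 regions at the same place and not separate sites. The HOXD13 summit sequence is shown because it holds TCGTAAA (capitals, plus strand).
Rara HOXD13 summit at chr11:98907563-98907683, 20.2 kb upstream: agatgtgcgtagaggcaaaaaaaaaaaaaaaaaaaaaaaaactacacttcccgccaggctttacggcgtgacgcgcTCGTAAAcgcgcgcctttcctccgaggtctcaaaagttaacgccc

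A CTCF site in a Rara intron, 26.7 kb downstream, had folds of 14.9 in DFL and 16.0 in PFL and held the core motif (capitals, plus strand).
Rara CTCF core at chr11:98954429-98954468: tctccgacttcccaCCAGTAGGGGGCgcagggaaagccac

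Rarb (chr14:16430839-16819156, minus strand) encodes the receptor whose transcription retinoic acid itself induces, through the DR5 printed above. Its annotated 5′ end belongs to a long transcript outside the basic annotation, and that window held 243 bp of H3K27ac in DFL (28.2 kb upstream, fold 2.08, −log10 q 2.05), 0 bp in PFL, and neither H3K27me3 nor CTCF. It did hold 5 HOXA13 and 4 HOXD13 regions, with folds of up to 6.53 and 5.75. The basic transcripts start at a downstream promoter (chr14:16575827), where the same window was described beside the main one and is not counted among the 9.

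At the downstream promoter H3K27ac covered 3942 bp in 3 DFL regions and 4437 bp in 4 PFL regions. The promoter region measured 1793 bp in DFL and 1265 bp in PFL, with folds of 4.89 and 7.55. The lower fold in DFL stood over a higher background, 2.33 against 1.72, a ratio of 1.35 at percentile 96.1, while the summit pileup ratio was 0.862. An intronic region 21.4 kb downstream had 1663 and 1479 bp, folds of 4.15 and 5.25, and backgrounds of 1.79 and 1.26, a ratio of 1.42 at percentile 97.1. A region 22.2 kb upstream had 486 and 988 bp and a ratio of 0.720, so the Rarb regions differed in both directions.

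H3K27me3 lay at the downstream side of the acetylated promoter of Rarb. In DFL a region of 387 bp lay inside the H3K27ac region and another of 1626 bp ended just short of it, and in PFL a region of 2178 bp overlapped the edge of H3K27ac. CTCF sat on the promoter with folds of 5.62 in DFL and 3.73 in PFL. The strongest HOX13 binding of Rarb fell on the intronic H3K27ac region. Its folds were 11.6 for HOXA13, the 1555th highest of 66761, and 10.5 for HOXD13, the 1699th of 52660. A HOXA13 region with a fold of 7.85 lay 29.1 kb upstream without H3K27ac. Both sequences are printed to set a strong acetylated site without either motif beside one with CAATAAA (plus strand).
Rarb HOXA13 summit at chr14:16554696-16554816, 21.1 kb downstream: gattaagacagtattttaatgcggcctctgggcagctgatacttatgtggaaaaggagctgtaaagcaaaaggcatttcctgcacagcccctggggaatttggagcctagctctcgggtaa
Rarb HOXA13 summit at chr14:16604849-16604969, 29.1 kb upstream: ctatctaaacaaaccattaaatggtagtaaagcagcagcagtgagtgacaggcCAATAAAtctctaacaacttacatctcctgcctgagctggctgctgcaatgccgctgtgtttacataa

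Rarg (chr15:102234938-102257517, minus strand), the receptor known from cartilage and skin, had the largest DFL lead in H3K27ac length of the 9 genes, 11671 bp in 20 regions against 10547 bp in 17. Its 17 pairs had a median background ratio of 1.0, from 0.902 to 1.18. The median pair lay 33.1 kb downstream, where each background was the lowest of its library, so its ratio was fixed and does not measure a balance at Rarg. The ratios were not spread evenly along the gene. The 5 pairs within 2.2 kb of the 5′ end had ratios of 0.902 to 0.929, and the 5 pairs between 9.38 and 13.8 kb downstream had ratios of 1.10 to 1.18. The latter lie on both sides of a further annotated Rarg start, which was 442 bp from the DFL summit at 11.5 kb downstream. The pairs at the 5′ end were at percentiles 39.1 to 45.8 of all pairs and those around the further start at 86.1 to 90.8. The pairs of each stretch are neighbours and not independent, and at the 5′ end some share a PFL region.

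Of the 5 HOXA13 and 4 HOXD13 regions of Rarg, 3 and 2 had their summit in that stretch. At 12.4 kb downstream, in a Rarg exon, the HOXA13 region (fold 4.71) overlapped H3K27ac of PFL alone. The HOXD13 region there (fold 4.59) overlapped H3K27ac of neither piece. A HOXA13 region 12864 bp downstream (fold 2.19) also overlapped H3K27ac of neither piece. The HOXA13 region at 13.6 kb (fold 3.96) and the HOXD13 region at 13.5 kb (fold 3.97), in an intron, overlapped H3K27ac of both pieces. H3K27me3 was called 33.1 to 34.1 kb downstream in the neighbour Itgb7, 796 bp in DFL and 1286 bp in PFL, and none at Rarg. CTCF sites 18.1 kb downstream and 30.1 kb upstream had folds of 17.2 and 15.4 in DFL and 16.9 and 14.3 in PFL.

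**Figure D4:**
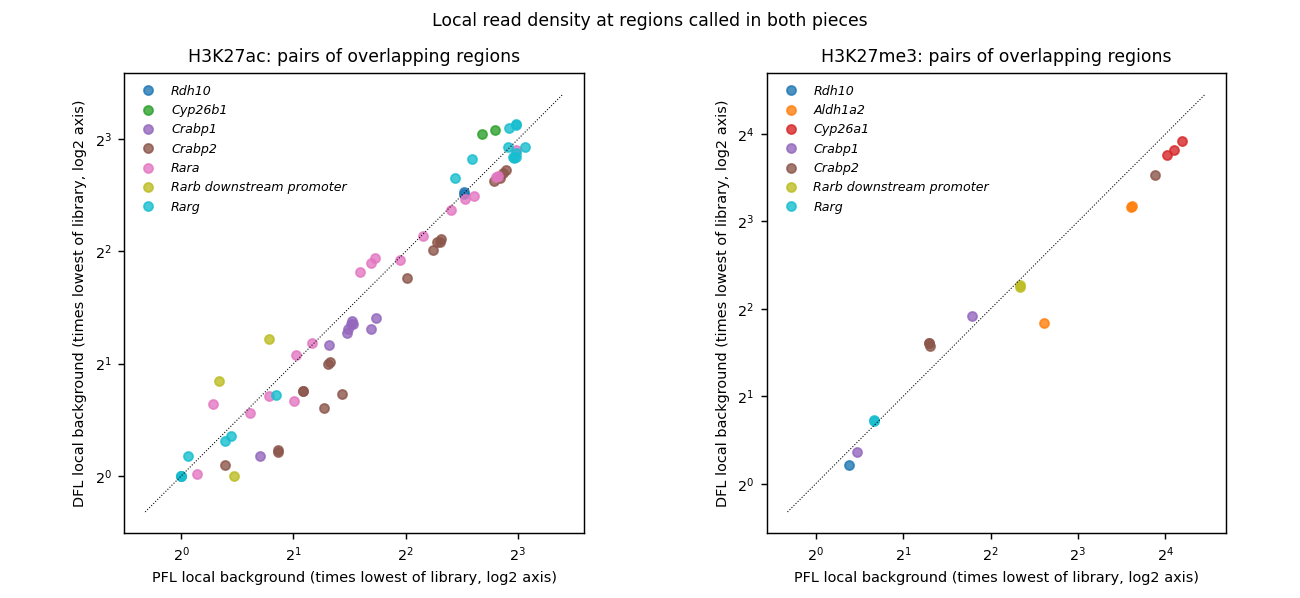
Local background of overlapping DFL and PFL regions as a multiple of the lowest of each library (PFL on the x axis, DFL on the y axis, both log2 axes), for H3K27ac (left) and H3K27me3 (right), 1 point a pair. All 18 Crabp2 H3K27ac pairs fall below the dotted line of equality, both Cyp26b1 pairs above it, and the Aldh1a2 and Cyp26a1 H3K27me3 pairs below it.

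Across the 9 windows 67 H3K27ac pairs had a median background ratio of 0.918 and 15 H3K27me3 pairs a median of 0.889, close to the all-pair medians of 0.946 and 0.893. None of the H3K27ac pairs was at least 1.5 times higher in DFL (2.05% of all pairs), none of the H3K27me3 pairs was (1.74%), and 1 H3K27me3 pair, at Aldh1a2, was at least 1.5 times higher in PFL (6.49%). By summit pileup 1 H3K27ac pair was at least 1.5 times higher in DFL (5.41%) and 11 in PFL (16.4%), and 4 H3K27me3 pairs were in DFL (4.56%) and 0 in PFL (9.84%). Of these 4 H3K27me3 pairs, 3 were neighbours at Nes in the Crabp2 window and 1 was at Crabp1. Some pairs of the 9 windows share a PFL region that was split in DFL, and pairs over all regions were made by the same rule. Of the DFL H3K27ac regions 67 of 79 had a PFL counterpart (84.8%, interval 75.3 to 91.1%), against 73.3% of all DFL regions, and of the PFL regions 66 of 85 had one (77.6%, 67.7 to 85.2%), against 61.9%. For H3K27me3, all 15 DFL regions had a PFL counterpart (91% of all DFL regions) and 14 of 23 PFL regions a DFL counterpart (60.9%, against 56% of all).

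Most CTCF sites were called in both pieces. Of 46 DFL sites 39 were also called in PFL (84.8%, interval 71.8 to 92.4%), against 88.7% of all DFL sites, and of 41 PFL sites 39 were called in DFL (95.1%, against 91.8%). CTCF lay within 2 kb of a start of Rdh10, Aldh1a2, Cyp26b1 and Rarb in both pieces, as at 30% of all genes.

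HOX13 regions numbered 41 for HOXA13 and 38 for HOXD13, a median of 4 per gene for each factor against 2 over all genes. Of the HOXA13 regions 24 (58.5%) lay outside H3K27ac of both pieces, against 67% of all, and of the HOXD13 regions 22 (57.9%), against 65.1%. On H3K27me3 lay 3 HOXA13 regions (7.32%, interval 2.52 to 19.4%, against 2.51% of all) and 2 HOXD13 regions (5.26%, 1.46 to 17.3%, against 2.06%), at Aldh1a2 and Cyp26b1. The HOXA13 interval begins at the share over all regions and the HOXD13 interval includes it.

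H3K27ac regions called in a single piece were also set against HOX13. Of 12 DFL regions without a PFL counterpart 11 lay clear of HOX13 (91.7%, 64.6 to 98.5%), against 67.5% of such regions over the genome, and the exception was the one upstream of Rarb. Of 19 PFL regions without a DFL counterpart 16 lay clear of it (84.2%, 62.4 to 94.5%), against 87.5%. Of the shared regions 46 of 67 in DFL (68.7%, 56.8 to 78.5%) and 43 of 66 in PFL (65.2%, 53.1 to 75.5%) lay clear, against 59.1% and 58.5%. Each interval includes the share over the genome, and a difference between the pieces was not detectable at these counts. CAATAAA or TCGTAAA, on either strand, was present in the 121 bases around 7 of 41 HOXA13 summits (17.1%, 8.53 to 31.3%) and 9 of 38 HOXD13 summits (23.7%, 13 to 39.2%), beside 14.5% and 15.4% of all summits of these lists and 1.29% of all DFL H3K27ac summits.

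**Figure D5:**
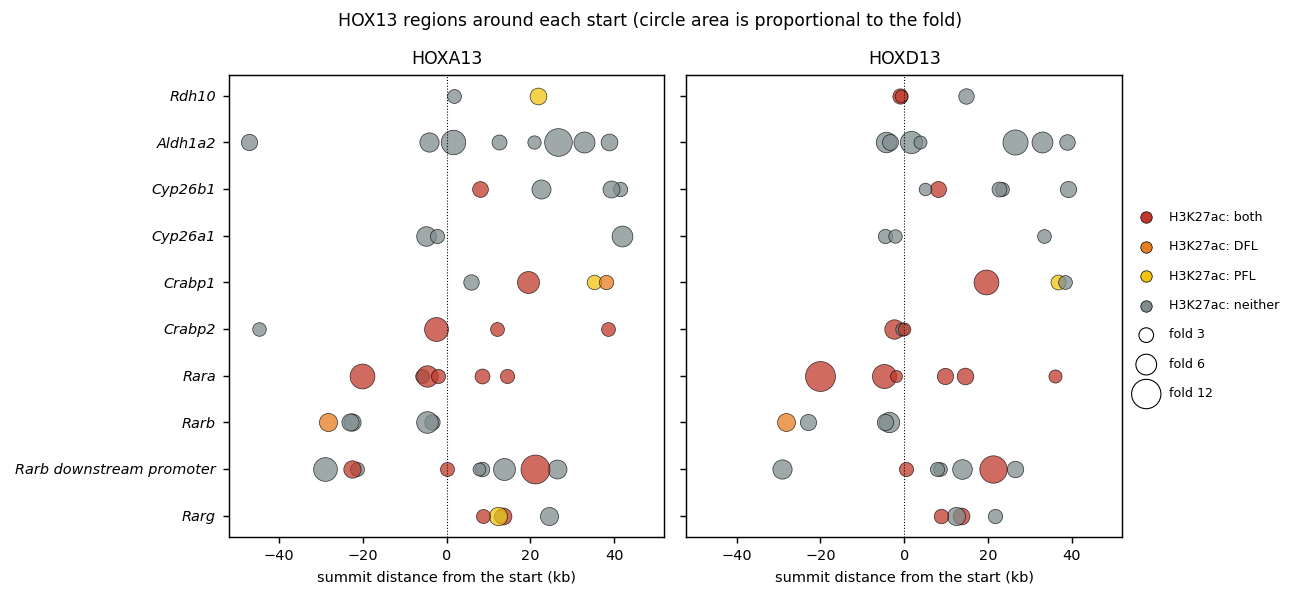
HOXA13 (left) and HOXD13 (right) regions by distance of the summit from each start (kb, downstream positive), with circle area proportional to the fold and colour giving overlap with H3K27ac of both pieces, DFL, PFL or neither. All circles at Aldh1a2 are grey (no H3K27ac), those at Rara are nearly all red, and the largest lie at Rara (HOXD13 fold 12.51) and at the downstream promoter of Rarb (HOXA13 fold 11.6).

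A list of 35 further genes of the pathway was counted in the same way. H3K27ac was longer in DFL at 7 (18.2% of all genes), longer in PFL at 24 (64.4%) and equal at 4, with a median DFL minus PFL of -338 bp, beside 169 bp for the 9 genes and -243 bp for all genes. The single gene that passed the size for a call was Hoxb1, a retinoic acid target, with 1297 bp in DFL and 4291 bp in PFL (4.17% of all genes passed towards PFL). Rarres2 was acetylated at its start in PFL alone, as were 3.59% of all genes.

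H3K27me3 over this list was longer in DFL at 2 genes (4.4% of all genes), longer in PFL at 19 (41.3%) and equal at 14 (54.3%). The size for a call was passed by 3, all towards PFL, beside 5.79% of all genes. They were Stra6, the receptor for the retinol carrier in blood, with 334 and 1426 bp, Rxrb, a partner of the receptors, with 1084 and 3358 bp, and Meis2, a proximal limb factor induced by retinoic acid, with 1160 and 3729 bp. H3K27me3 marked a start of the coactivator gene Ncoa1 in DFL alone (0.475% of all genes), and of Ncoa2, Tgm2 and Meis1 in PFL alone (4.01%).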

How the data were processed

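The members and gene lists were chosen with earlier results of these data known. According to the study's methods and the labels, reads were trimmed with cutadapt, aligned to mm10 with Bowtie and filtered with SAMtools, and the authors called peaks with MACS2 for each library alone, without input. Each deposited line gives an interval, a fold enrichment (ratio of summit pileup to local background), a −log10 p, a −log10 q, a display score, which was not used, and a summit offset.

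Lines sharing an interval were collapsed and overlapping regions merged. The deposited −log10 p and fold together give the pileup and the local background, and the pileup came out whole (tolerance 0.001 in −log10 p) for at least 99.99% of regions of every list. The background of a region, divided by the lowest of its library, was compared between overlapping DFL and PFL regions (at least 1 bp). Pairs were made for each DFL region, so a PFL region split in DFL served more than once. Covered length was summed within 50 kb of the annotated 5′ end (GENCODE vM21, GRCm38.p6, the assembly of mm10). Of 21755 protein-coding genes, 54 without a unique symbol were left out. All 9 members were named, and other pathway genes where they passed a call of size or had a promoter marked in 1 piece. The 3 genes most like each member were found by distance over the 8 lists, and the closest is named, or both where they were equally close. Wilson 95% intervals cover counting error only. Groups came from sample titles, and the columns of the authors' lists were all mapped. RefSeq promoters of Rdh10 and Crabp2 were not used here. Single values of some further pathway genes are not reported here.

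Alternatives were a −log10 q of at least 5, lists of equal size, windows of 10 and 100 kb, merging over 1000 bp, counting regions, overlap by 50% of the shorter region, all basic starts and promoters within 500 bp. The code was tested on simulated data, where it recovered 100% of 200 covered lengths and 100% of 1000 pileups. Python 3.11.15, numpy 2.4.6, scipy 1.17.1 and matplotlib 3.10.9 were used.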

Additional observations from a re-analysis of the deposited data

How the results depend on the processing

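Of 65 alternative values, 55 stayed within the 95% interval of the reported share or within 1.5 times the reported count and 10 moved. A share of covered length has no counting interval, so the interval of the region share was shifted onto it. A count could stay while its genes changed, as for starts with H3K27me3 in PFL alone within 500 bp. The DFL share of H3K27ac length ran from 47.1% (window of 100 kb) to 50.6% (10 kb, where the lead turned to DFL), that of H3K27me3 between 30% (−log10 q of at least 5) and 43.8% (10 kb), and the share of DFL CTCF sites also in PFL between 81.8% and 88.0%. With a window of 10 kb, 0% of 4 DFL-only and 0% of 2 PFL-only H3K27ac regions had HOX13, from fewer regions, and the other alternatives gave 7.69% to 28.6% (2 of 7 at a −log10 q of at least 5) for DFL and 8.33% to 16.7% for PFL. The share was lower in DFL as reported (8.33% beside 15.8% in PFL) and higher in DFL at a −log10 q of at least 5 (28.6% beside 8.33% of 12 PFL regions). Within 100 kb 1 gene passed the size for more H3K27ac in DFL (Cyp26a1, 1535 and 272 bp), and within 10 kb 1 passed it towards PFL (Crabp1, 288 and 1494 bp). For H3K27me3 towards PFL, 2 passed at a −log10 q of at least 5 (Cyp26a1, 0 and 2857 bp, and Crabp1, 1058 and 2254 bp), 1 within 100 kb (Rara, 647 and 1769 bp) and 1 with merging over 1000 bp (Cyp26a1, 2005 and 4376 bp). At a −log10 q of at least 5, H3K27ac marked 1 start in DFL alone (Aldh1a2) and H3K27me3 2 starts in PFL alone (Cyp26b1 and Cyp26a1). Within 500 bp of a start H3K27me3 was in DFL alone at 1 gene (Rarb) and in PFL alone at Cyp26a1 in place of Cyp26b1. The cause was not tested. The DFL lead of Rarg in H3K27ac length turned at 100 kb (20797 and 21029 bp), and so did that of Rarb (634 and 1537 bp). At a −log10 q of at least 5, Cyp26a1 and Rarb had 0 bp of H3K27ac in both pieces. In either setting fewer than the reported 5 genes were longer in DFL. No paired analysis was possible because each mark and piece had 1 library. H3K27me3 was the shallowest mark, and weak regions at the lowest background, such as those at Cyp26a1, are the least certain.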

Other observations

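The genes on other chromosomes most like each member over the 8 lists were found by Euclidean distance in log2 of covered length plus 100 bp. The closest was Abcc3 for Rdh10 (distance 0.590), Tlr9 for Cyp26b1 (0.664), Gpr12 for Cyp26a1 (0.666), Zbtb45 for Crabp2 (0.573) and Ifrd2 for Rara (0.342). Crebzf and Tmem126a were equally close to Crabp1 (0.571). Irf9 was closest to Rarg (0.835) and 1700024P04Rik to Rarb (1.01). Aldh1a2 had the most distant nearest gene, the forkhead factor gene Foxf2, at 1.69. Likeness here is of 8 covered lengths in single libraries.

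The 7 further pathway genes with longer H3K27ac in DFL included Dhrs3, which reduces retinaldehyde back to retinol, with 7393 bp in DFL and 6078 bp in PFL, Aldh1a3, a further retinoic acid synthesis gene, with 4376 and 3778 bp, Stra6 with 4058 and 3341 bp, and Rdh5 with 5536 and 5314 bp. Cyp26c1, also among them, had 804 and 0 bp from the same regions as Cyp26a1. Aldh1a1, Dhrs9 and Rbp2 had 0 bp of H3K27ac and of H3K27me3 in both pieces. These genes were picked after their values were seen.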
